A study of Mus musculus with 12 samples.

Results

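The genes described here encode the insulin-like growth factors (IGFs), their signalling receptor and the proteins that bind them. The set holds 10 of the 54658 gene names counted in each library: the ligands *Igf1* and *Igf2*, the receptor *Igf1r*, the binding proteins *Igfbp2* to *Igfbp7* and the binding-protein-like gene *Igfbpl1*. They were chosen by family name, with the genotype contrast of these libraries already known, so their differences between genotypes are a description and carry no test. The RNA came from left atria (LA) of 6 iNICD and 6 control mice on a mixed genetic background, which were given doxycycline at 2 to 3 months of age. Both groups carried *αMHC-rtTA*, a transactivator expressed from a cardiomyocyte promoter, and both were fed doxycycline chow for 3 weeks with no washout. The iNICD mice also carried *tetO_NICD*, so that the intracellular domain of Notch1 was produced in cardiomyocytes while the drug was given, whereas the other cells of the atrium were sequenced along with them. Females numbered 4 among the controls and 3 among the iNICD mice, males 2 and 3, and every atrium gave a separate library.

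IGF1 and IGF2 are secreted peptides that activate the tyrosine kinase receptor encoded by *Igf1r*, which signals through insulin receptor substrates to the PI3K and Akt kinases and through Ras to the MAP kinases. In the heart this pathway is known for its part in growth of the myocardium. IGF-binding proteins circulate or sit in the extracellular matrix, hold the ligands with high affinity, extend their lifetime and limit or prolong their access to the receptor. They share a cysteine-rich domain at the amino terminus, and *Igfbp7* and *Igfbpl1* encode more distant relatives with that domain but a different carboxyl-terminal part.

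The shared domain can be read in the coding sequence. *Igfbpl1* lies on the minus strand of mouse chromosome 4 (GRCm38, chr4:45809468-45826923), where no other annotated gene overlaps it, and its coding sequence has 270 codons, 18 of them for cysteine. The lines below show 80 codons of *Igfbpl1* beside its relative *Igfbp7* (chr5:77349240-77408041, minus strand), the classical *Igfbp5* (chr1:72857932-72874884, minus strand) and *Igfbp6* (chr15:102144362-102149511, plus strand), chosen because they span the family around the gene that stood apart. Each is the stretch of that length richest in cysteine codons, set to begin at a cysteine codon, is written 5′ to 3′ in the coding direction from GENCODE M21 transcripts, and has its in-frame cysteine codons in capitals.
Igfbpl1: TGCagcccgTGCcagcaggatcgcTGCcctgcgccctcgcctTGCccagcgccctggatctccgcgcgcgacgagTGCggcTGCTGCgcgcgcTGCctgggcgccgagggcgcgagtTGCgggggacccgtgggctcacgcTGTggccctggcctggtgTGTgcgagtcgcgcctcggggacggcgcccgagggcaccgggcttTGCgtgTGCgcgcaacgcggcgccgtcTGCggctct
Igfbp7: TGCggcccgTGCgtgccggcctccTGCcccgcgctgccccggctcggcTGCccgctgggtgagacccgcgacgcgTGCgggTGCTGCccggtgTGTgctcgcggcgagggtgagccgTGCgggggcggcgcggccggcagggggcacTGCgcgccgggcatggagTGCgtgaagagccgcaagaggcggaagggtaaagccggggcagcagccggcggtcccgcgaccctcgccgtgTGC
Igfbp5: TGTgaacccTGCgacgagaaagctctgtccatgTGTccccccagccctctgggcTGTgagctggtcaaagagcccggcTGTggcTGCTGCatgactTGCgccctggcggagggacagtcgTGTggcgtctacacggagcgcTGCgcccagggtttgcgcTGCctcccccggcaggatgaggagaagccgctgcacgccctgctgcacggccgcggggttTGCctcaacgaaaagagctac
Igfbp6: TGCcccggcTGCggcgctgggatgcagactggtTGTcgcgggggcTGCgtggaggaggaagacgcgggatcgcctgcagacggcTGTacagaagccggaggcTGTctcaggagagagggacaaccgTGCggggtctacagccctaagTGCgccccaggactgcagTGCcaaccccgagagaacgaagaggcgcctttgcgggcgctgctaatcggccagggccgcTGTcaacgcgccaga
In these stretches *Igfbpl1* had 14 cysteine codons, *Igfbp7* and *Igfbp5* had 12 each and *Igfbp6* had 10. A run of codons for cysteine, glycine, cysteine and cysteine began at codon 55 of *Igfbpl1*, codon 57 of *Igfbp7* and codon 52 of *Igfbp5*. The same run began at codon 68 of *Igfbp2*, 69 of *Igfbp3* and 53 of *Igfbp4*, and no such run was found in *Igfbp6*.

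Reads counted on genes totalled 21555678 to 26902478 for controls and 21432632 to 27182038 for iNICD. *Notch1*, which supplies the coding sequence of the transgene, had a depth-scaled, normalised count (CPM) of 108 to 131 in controls and 2975 to 4077 in iNICD libraries, which fits the labels. Control 5, a male, stood apart: on the first principal component, which held 32.6% of the variance, it lay at -77.4, the other controls between -20.2 and 7.98 and the iNICD libraries between 3.87 and 22.7. Its normalisation factor was 0.863. The tissue carried cardiomyocyte markers at a summed level of 51740 to 63831 CPM, whereas the 3 ventricular markers differed among themselves. *Irx4* was at 0 counts in every library, *Myl2* had 0.231 to 3.22 CPM, and *Myh7* ranged from 17.8 to 2155 CPM in controls and from 13.1 to 2230 in iNICD libraries. Because this is whole atrial tissue, fewer cells of a type and less RNA per cell cannot be told apart.

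Of the 10 genes, *Igfbpl1* was the one that differed strongly between the genotypes, and it was 8.06-fold higher in the iNICD atria. Normalised CPM of *Igfbpl1* was 23.8, 21.7, 18.7, 26.0, 15.8 and 28.9 in Controls 1 to 6. It was 167, 173, 136, 237, 149 and 226 in iNICD 1 to 6. The lowest iNICD library therefore lay far above the highest control, and the groups did not overlap. The means were 22.5 ± 4.78 (SD, n = 6) and 181 ± 41.3 (SD, n = 6), and the log2 fold change was 3.01 with an SE of 0.18 and a 95% interval of 2.62 to 3.40. Across all tested genes, 4.12% were called at an adjusted p of 0.05 in this contrast by edgeR's quasi-likelihood test, 2.78% as higher and 1.34% as lower in iNICD. Of the 9 family genes tested, 1 was called, *Igfbpl1*, and 8 were not; since the genes were chosen with this contrast known, nothing is read from that share. Libraries of the 2 genotypes did not overlap for 3.83% of all tested genes, and among the family this held for *Igfbpl1* alone.

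**Figure D1:**
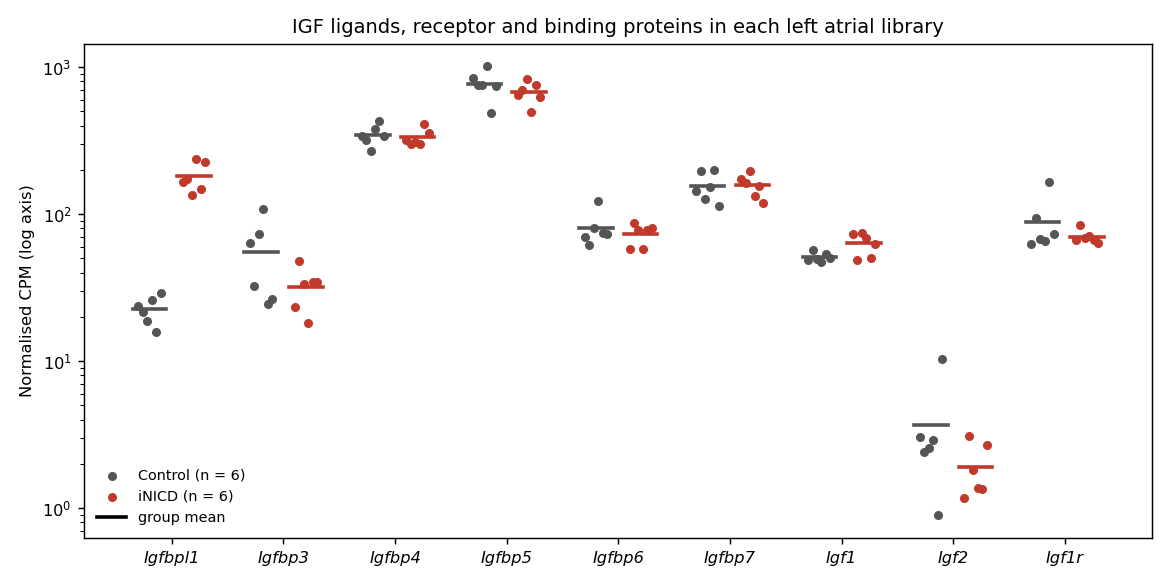
Normalised CPM on a log axis for the 9 family genes that passed the filter, with 1 point per library (grey, Control, n = 6; red, iNICD, n = 6) and a bar at each group mean. The groups are apart for *Igfbpl1*, at 15.8 to 28.9 against 136 to 237, and overlap for the other 8 genes; single high controls are seen for *Igf2* and *Igf1r*.

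Markers of the cell types in the atrium were compared between the genotypes in the same fit, in which 4.12% of all tested genes were called. None of the 8 fibroblast, 8 endothelial, 8 smooth muscle and pericyte, 8 epicardial and mesothelial or 8 macrophage markers was called. The summed fibroblast level was 2354 to 3122 CPM in controls and 2339 to 3312 in iNICD libraries, and the macrophage level was 269 to 376 and 284 to 415. The epicardial level was 276 to 367 in controls and 170 to 348 in iNICD libraries, of which 4 lay below all controls. The cardiomyocyte level was 59113 to 63831 in controls and 51740 to 60037 in iNICD libraries, with 5 of 6 below all controls, and *Tnnt2*, *Myl7* and *Sln* were the 3 of 8 cardiomyocyte markers called, each lower. No marker of lymphocytes, adipocytes or Schwann cells was called either, though only 1, 1 and 3 of them passed the filter. The part of these shifts in the *Igfbpl1* values was not tested.

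The ligands had log2 fold changes of opposite sign, and both overlapped between the genotypes. *Igf1*, the main IGF of the adult animal, had 48.9, 56.7, 49.4, 47.4, 53.2 and 50.4 normalised CPM in Controls 1 to 6. In iNICD 1 to 6 it had 73.4, 48.8, 74.7, 69.3, 50.2 and 62.5. In iNICD 1, 3, 4 and 6 it lay above every control, while iNICD 2 and 5 lay among the controls. The log2 fold change was 0.31 (SE 0.11, 95% interval 0.07 to 0.55), a 1.24-fold difference. *Igf2*, a growth factor of the embryo that is imprinted and largely switched off after birth in rodents, was the lowest ligand, with 19 to 223 counts per library. Its normalised CPM was 3.06, 2.398, 2.57, 2.92, 0.889 and 10.3 in Controls 1 to 6 and 1.18, 3.09, 1.82, 1.36, 1.34 and 2.67 in iNICD 1 to 6. Control 6 held the highest value and Control 5 the lowest of all 12 libraries, so the groups overlapped. The log2 fold change of *Igf2* was -0.95 (SE 0.48, interval -1.99 to 0.09), and it was -0.32 without Control 6.

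Reads of both ligand genes have annotated partners that share their ground. *Igf1* (chr10:87858265-87937042, plus strand) overlaps an antisense transcript, *Igf1os*, that had 0 to 3 counts per library. *Igf2* (chr7:142650766-142666816, minus strand) overlaps *Igf2os*, which had 2 to 11 counts. On its own strand it overlaps *Mir483* and the protein-coding gene *Gm49394* (chr7:142650769-142669942), both with 0 counts in every library. Whether reads on the shared ground were left out of the *Igf2* counts was not tested, so its level may be too low. The imprinted RNA gene *H19* begins 72622 bases away. *H19* had a mean of 117 ± 48.2 CPM (SD, n = 6) in controls and 83.1 ± 35.1 (SD, n = 6) in iNICD libraries, and its log2 fold change of -0.49 (SE 0.32) was not called by edgeR's quasi-likelihood test (adjusted p = 0.456).

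*Igf1r*, the receptor for both ligands, had 62.3, 94.1, 67.4, 66.1, 164 and 73.2 normalised CPM in Controls 1 to 6. In iNICD 1 to 6 it had 66.2, 84.3, 68.6, 71.1, 66.2 and 63.5. Apart from Control 5, every library fell between 62.3 and 94.1. The log2 fold change was -0.33 (SE 0.21, interval -0.79 to 0.14), and it shrank to -0.06 when Control 5 was left out.

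The classical binding proteins and *Igfbp7* had log2 fold changes between -0.19 and 0.01, except for *Igfbp3*. *Igfbp3*, the main carrier of IGFs in serum, had 63.8, 32.3, 73.6, 108, 24.6 and 26.5 normalised CPM in Controls 1 to 6 and 23.4, 47.6, 33.3, 18.1, 34.4 and 34.4 in iNICD 1 to 6. The controls spread from 24.6 to 108, and iNICD 1 and 4 lay below all of them. Its log2 fold change was -0.78 (SE 0.37, interval -1.58 to 0.01), and it was -0.47 without Control 4, -0.53 with sex as a covariate and 0.17, the opposite sign, in males alone. *Igfbp5*, which binds to the extracellular matrix, had the highest CPM of the family before any scaling by length, with 487 to 1012 CPM in controls (median 754) and 495 to 825 in iNICD libraries (median 671). Its log2 fold change was -0.19 (interval -0.53 to 0.16).

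*Igfbp4*, an inhibitor of IGF action that is cleaved by pappalysin, had 269 to 428 CPM in controls and 301 to 412 in iNICD libraries, with a log2 fold change of -0.05 (interval -0.30 to 0.19). *Igfbp6*, which prefers IGF2, had 61.9 to 123 CPM in controls and 57.8 to 87.2 in iNICD libraries, with a log2 fold change of -0.14 (interval -0.49 to 0.21). *Igfbp7* had 114 to 200 CPM in controls and 120 to 195 in iNICD libraries, with a log2 fold change of 0.01 (interval -0.32 to 0.34). All 3 genes overlapped between the genotypes, and the intervals leave room for a difference of the size that each bound gives. *Igfbp7* meets the convergent gene *Polr2b* (1563 to 1973 counts) at its end, and whether the counting used strand is not given in the sources used here. *Igfbp2* (chr1:72824503-72852474, plus strand), which lies 5457 bases from *Igfbp5*, had 0, 2, 2, 1, 0 and 1 counts in Controls 1 to 6 and 3, 0, 0, 0, 1 and 0 in iNICD 1 to 6. These counts are at or under a floor of 3 counts per library, which corresponds to 0.109 to 0.140 CPM, so *Igfbp2* was not tested and has no fold change.

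**Figure D2:**
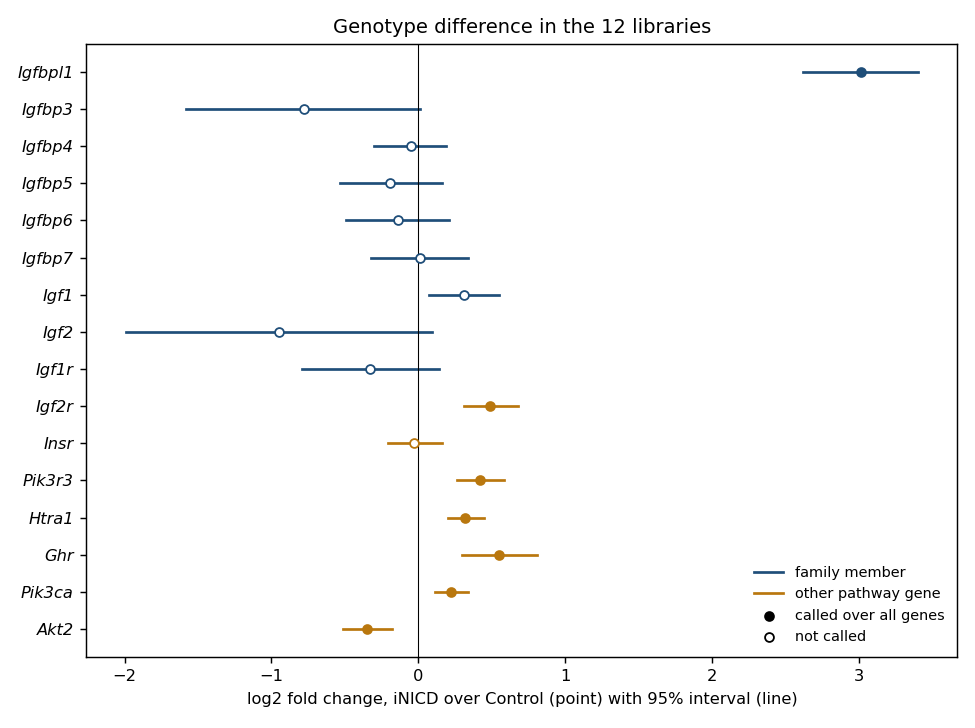
Log2 fold change of iNICD over Control (points) with 95% intervals (lines) for the 9 tested family genes (blue) and for 7 other IGF pathway genes (orange), filled where the gene was called over all tested genes. *Igfbpl1* stands at 3.01, and the other 8 family genes lie between -0.95 and 0.31; the called pathway genes lie between -0.35 and 0.55.

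To compare levels between genes, normalised CPM was divided by gene length in kilobases. In the controls *Igfbp7* and *Igfbp5* led, at 129 ± 29.1 and 127 ± 28.4 CPM per kilobase (SD, n = 6), and did not differ beyond their spread, since *Igfbp7* was the higher of the pair in 2 of 6 libraries. *Igfbp4* followed at 78.4 ± 12.3 and *Igfbp6* at 72.4 ± 19.5, and *Igfbp4* was higher in 4 of 6. *Igfbp3* came next at 17.5 ± 10.6, above *Igfbpl1* at 6.92 ± 1.47 in 5 of 6 libraries. *Igf1r* at 5.24 ± 2.33 and *Igf1* at 5.15 ± 0.345 had nearly equal means, although *Igf1r* was higher in only 1 of 6 libraries, Control 5. *Igf2* at 0.645 ± 0.583 and *Igfbp2* at 0.0219 ± 0.0191 were the lowest. The 4 leading genes are all binding proteins, and each of them lay above both ligands and the receptor in every control library.

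In the iNICD libraries the order of means was the same but for *Igfbpl1*, which stood above *Igfbp3*, and for *Igf1* and *Igf1r*. *Igf1* was above *Igf1r* in 5 of 6 iNICD libraries, as in 5 of 6 controls, and Control 5 alone set the order of their control means. *Igfbpl1* reached 55.8 ± 12.7 CPM per kilobase (SD, n = 6), just under *Igfbp6* at 65.9 ± 11.2, which was higher in 5 of 6 libraries, and above *Igfbp3* at 10.2 ± 3.28 in 6 of 6. *Igfbpl1* made up 1.15% to 2.35% of the summed binding-protein level per length in controls and 8.49% to 18.7% in iNICD libraries. The summed level of all 7 binding proteins was 431 ± 54.8 CPM per kilobase in controls and 449 ± 36.1 in iNICD libraries, with ranges of 378 to 535 and 391 to 492 that overlapped. Without *Igfbpl1* the sums were 424 ± 54.6 and 393 ± 47.6. *Igf1* exceeded *Igf2* per length in every library, by 2.82 times in Control 6 and by 36.0 times in iNICD 1 at the extremes.

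**Figure D3:**
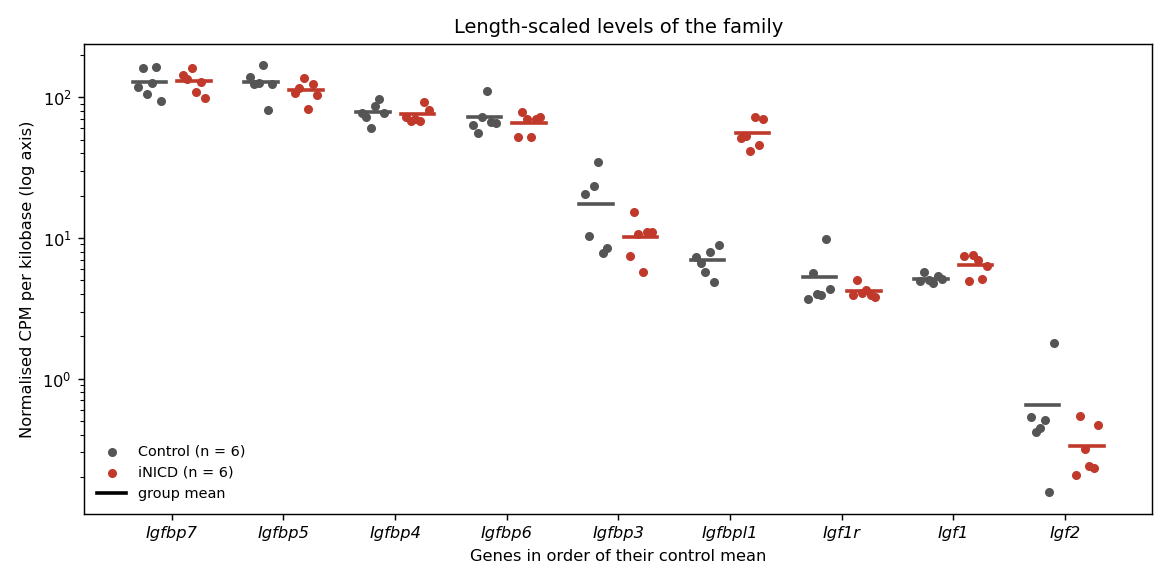
Normalised CPM per kilobase of gene length on a log axis, with genes in order of their control mean, 1 point per library (grey, Control, n = 6; red, iNICD, n = 6) and a bar at each group mean. *Igfbp7* and *Igfbp5* lead in both genotypes, and *Igfbpl1* moves from a mean of 6.92 to one of 55.8, near *Igfbp6*. *Igfbp2*, with at most 3 counts per library, is not drawn.

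*Igfbpl1* does not stand alone on its chromosome. Of 15 other genes annotated within 300000 bases of it in GENCODE M21, 7 passed the filter. The window was chosen after the values were seen, and *Gm12409* and *Ccdc180* passed the filter through the iNICD libraries, where they are high, so no share of called genes is drawn from it. The nearest, *Aldh1b1* (chr4:45799022-45804604, plus strand), encodes a mitochondrial aldehyde dehydrogenase, and its 3′ end faces that of *Igfbpl1* across 4863 bases. *Aldh1b1* had 134 to 299 CPM in controls and 1242 to 2129 in iNICD libraries, with a log2 fold change of 2.92 (SE 0.22, edgeR adjusted p = 4.82e-06). The 95% intervals of *Aldh1b1*, 2.44 to 3.41, and of *Igfbpl1*, 2.62 to 3.40, covered nearly the same range. *Gm12409*, a non-coding transcript, lies 45244 bases from *Igfbpl1* on the same side as *Aldh1b1*. It had 0.0936 to 1.62 CPM in controls and 3.58 to 13.9 in iNICD libraries, or 2 to 35 and 88 to 340 counts. Its log2 fold change of 3.11 (SE 0.46) is imprecise, since its lowest control lay under the floor of 3 counts, and is only a description.

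On the other side, *Ccdc180*, which encodes a coiled-coil protein, begins 63379 bases from *Igfbpl1* and had 0 to 2 counts in each control library and 38 to 64 in each iNICD library. No fold is given for it, since the controls lay under the floor of 3 counts. *Tmod1*, which encodes the thin-filament capping protein tropomodulin, lies 212011 bases away and had a log2 fold change of 0.35 (SE 0.07, edgeR adjusted p = 0.00891). Between them, *Tdrd7* had a log2 fold change of 0.01 (interval -0.22 to 0.24), and the outermost genes, *Shb* and *Tstd2*, had -0.41 and -0.14 and were not called.

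**Figure D4:**
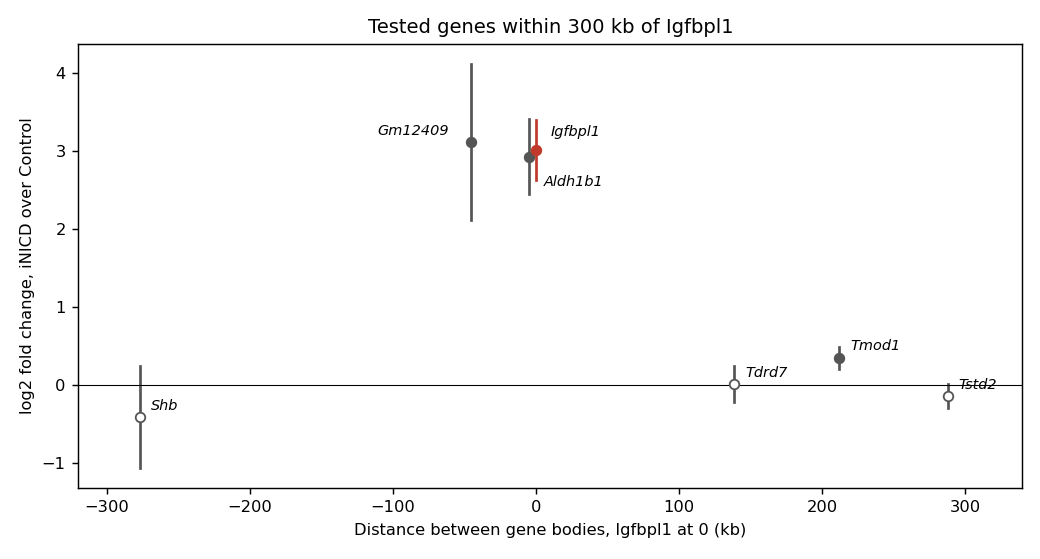
Log2 fold change of iNICD over Control (points) with 95% intervals (lines) against the distance in kilobases between each gene and *Igfbpl1* (red, at 0), filled where the gene was called over all tested genes. *Aldh1b1* at 2.92 lies beside *Igfbpl1* at 3.01, and the 4 outer genes lie between -0.41 and 0.35. *Gm12409* is drawn at 3.11, but it passed the filter through the iNICD libraries and its lowest control had 2 counts, so its value is imprecise. *Ccdc180* is not drawn, because its control libraries had at most 2 counts.

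The rest of the pathway was listed by role as 67 genes, with earlier results of these data known, and 58 passed the filter. Of these, 5 rose and 1 fell in iNICD, or 10.3%, beside 4.12% of all tested genes, a gap not tested and of no independent weight for a list made in this way; the median log2 fold change was 0 over the list and -0.01 over all tested genes. Among the related receptors, *Igf2r*, the scavenging receptor that carries IGF2 to the lysosome, went from 342, 390, 333, 358, 372 and 361 normalised CPM in Controls 1 to 6 to 614, 479, 539, 516, 435 and 452 in iNICD 1 to 6. Every iNICD library lay above every control, and the log2 fold change was 0.49 (SE 0.08, edgeR adjusted p = 0.00492). *Insr*, the insulin receptor, had 159 to 199 CPM in controls and 145 to 197 in iNICD libraries and was not called (log2 fold change -0.03, interval -0.21 to 0.16). The insulin genes, *Igfals* and *Igfbp1* did not pass the filter, and *Igfbp1* had at most 2 counts in any library.

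Of 6 proteases of binding proteins and their inhibitors, *Htra1*, a secreted serine protease that cleaves IGF-binding proteins, rose, and 5 were not called. *Htra1* had 173 to 206 CPM in controls and 227 to 264 in iNICD libraries, with no overlap (log2 fold change 0.32, SE 0.06, edgeR adjusted p = 0.00699). In the growth hormone axis, *Ghr*, the growth hormone receptor upstream of *Igf1*, rose, and 5 of 6 genes were not called. *Ghr* had 236, 204, 240, 220, 150 and 256 CPM in Controls 1 to 6 and 347, 310, 329, 358, 295 and 280 in iNICD 1 to 6, so the groups did not overlap and Control 5 was the lowest (log2 fold change 0.55, SE 0.12, edgeR adjusted p = 0.0169).

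Downstream of the receptor, 3 of 17 genes of the PI3K and Akt branch were called, beside 4.12% of all tested genes, from a list made with earlier results known. *Pik3r3*, a regulatory subunit of PI3K, rose, with 13.9 to 18.6 CPM in controls and 20.0 to 23.2 in iNICD libraries (log2 fold change 0.42, SE 0.07, edgeR adjusted p = 0.00602). *Pik3ca*, a catalytic subunit, rose, with 79.4 to 88.6 CPM in controls and 90.0 to 105 in iNICD libraries (log2 fold change 0.22, SE 0.05, edgeR adjusted p = 0.0337). *Akt2*, a kinase that carries the insulin signal, fell from a median of 110 CPM to 83.0 (log2 fold change -0.35, SE 0.08, edgeR adjusted p = 0.0246), and Control 5 at 86.7 lay among the iNICD libraries. The calls of *Pik3ca* and *Akt2* were fragile: *Pik3ca* lost its call in 9 and *Akt2* in 5 of the 12 fits that left out 1 library. For *Pik3ca* these were Controls 1, 2, 3 and 4 and iNICD 1, 2, 3, 4 and 5, with an adjusted p of up to 0.085. For *Akt2* they were Controls 1, 3 and 4 and iNICD 1 and 3, with an adjusted p of up to 0.0621. *Pik3ca* was also not called with no filter on low counts (edgeR adjusted p = 0.136), by edgeR's exact test (0.0665) and in males alone (0.83), and *Akt2* was not called in females alone (0.056) or males alone (0.774). Blocks by replicate number also cost both genes their calls. By titles the edgeR adjusted p was 0.116 for *Pik3ca* and 0.0699 for *Akt2*, and by descriptions 0.117 and 0.0875.

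The 4 other called genes kept their calls in all 12 of these fits, with adjusted p of at most 0.0172 for *Igf2r*, 0.0192 for *Pik3r3*, 0.019 for *Htra1* and 0.0457 for *Ghr*. They did not keep them in every other fit: in females alone *Pik3r3* (edgeR adjusted p = 0.0782) and *Htra1* (0.0818) lost theirs, *Ghr* lost its call with the description numbers as a block (0.0674), and none of the 4 was called in males alone. None of the 8 tested receptor adaptors, 6 targets of Akt or 11 genes of the Ras and MAP kinase branch was called by edgeR's quasi-likelihood test. The adaptor *Shc1* did not overlap between groups, at 52.2 to 54.9 CPM in controls and 43.1 to 50.4 in iNICD libraries (edgeR adjusted p = 0.136). With it, 6 of the 58 tested pathway genes did not overlap, beside 3.83% of all tested genes, from a list made with earlier results known. The adaptor *Irs2*, singled out for its size after the values were seen, had the lowest log2 fold change of the list, -1.21 (SE 0.37, edgeR adjusted p = 0.0924). It was called without Control 2, without Control 6, without Controls 5 and 6 together, by edgeR's exact test and by DESeq2, and in no other alternative. It had 20.3 to 101 CPM in controls and 22.9 to 37.1 in iNICD libraries.

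**Figure D5:**
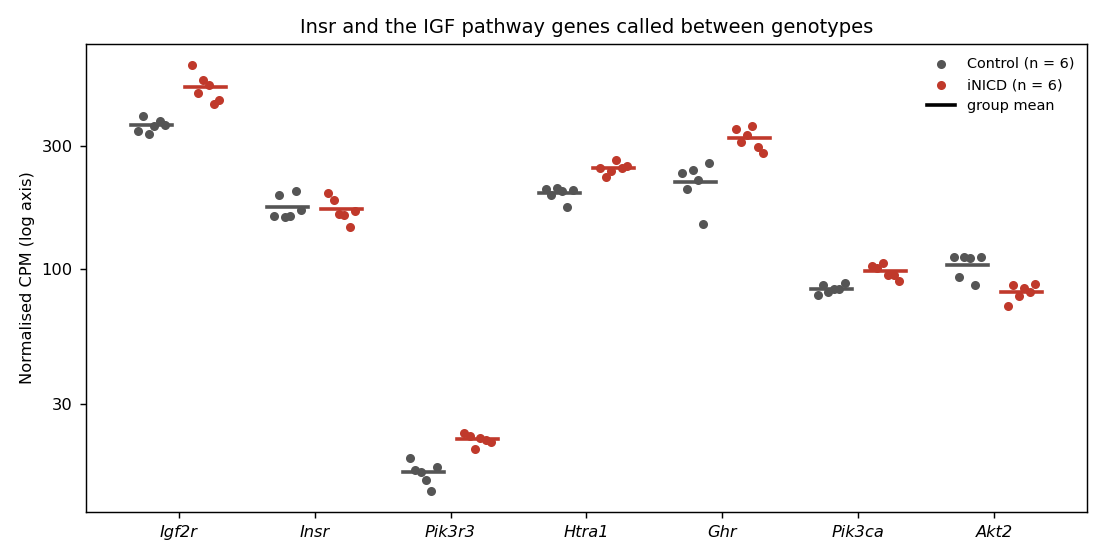
Normalised CPM on a log axis for *Insr* and for the 6 IGF pathway genes outside the family that were called between genotypes, with 1 point per library (grey, Control, n = 6; red, iNICD, n = 6) and a bar at each group mean. *Igf2r*, *Pik3r3*, *Htra1*, *Ghr* and *Pik3ca* do not overlap between groups, *Akt2* overlaps through Control 5 at 86.7, and *Insr* overlaps throughout.

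Sex was a contrast that had not chosen the genes. With genotype as a covariate, 39 of 13541 genes, 0.288%, differed between the 7 female and 5 male libraries by edgeR's quasi-likelihood test, a count that became 144 without Control 6. None of the 9 family genes was among them, also with DESeq2, and the lowest adjusted p was 0.334. At an unadjusted p under 0.05 stood 2 of the 9, beside 13.9% of all tested genes, so their number is not a result about the family. *Igfbp3* averaged 69.5 CPM in control females, 25.5 in control males, 34.8 in iNICD females and 28.95 in iNICD males. Its male-over-female log2 fold change was -0.80 (interval -1.56 to -0.04), and its interaction of sex and genotype was 1.18 (interval -0.13 to 2.49). *Igfbp5* averaged 840, 615, 722 and 624 CPM in the same order, with a male-over-female log2 fold change of -0.32 (interval -0.63 to -0.01). Of the 2 control males, Control 5 had 487 CPM of *Igfbp5* and Control 6 had 742, beside 751 to 1012 in control females. The genotype difference of *Igfbpl1* was seen in both sexes, from 22.6 to 159 CPM in females and from 22.4 to 204 in males, although it was not called in the fit of males alone, and the interaction of sex and genotype was 0.38 on the log2 scale (interval -0.37 to 1.12, edgeR adjusted p = 0.916). No gene passed the threshold for that interaction, 0% of 13541, with 501, or 3.7%, at an unadjusted p under 0.05 by edgeR and 1 called by DESeq2. *Igf1r* was the 1 family gene with an unadjusted p under 0.05 in it (-0.84, interval -1.64 to -0.03, edgeR adjusted p = 0.916), and its control males include Control 5.

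Levels of the family genes were also set against *Notch1* within the 6 iNICD libraries, in 9 relations chosen after seeing the data. *Igfbpl1* had a Pearson r of 0.472 (exact permutation p = 0.311, 0.700 adjusted over the 9) and a Spearman rho of 0.429 (exact permutation p = 0.419, adjusted p = 0.803), and r was -0.25 without iNICD 2 and 4, the libraries farthest from the median of *Notch1*. *Igfbp4* had a rho of -1, with exact permutation p = 0.00278, the smallest that 6 libraries allow, and adjusted p = 0.025, but an r of -0.737 with exact permutation p = 0.0681 and adjusted p = 0.431. Without the same pair of libraries its r was -0.983. Its values from iNICD 1 to 6 were 318, 301, 311, 301, 412 and 357 CPM, beside 3242, 3829, 3247, 4077, 2975 and 3078 for *Notch1*, so the order rested partly on values that were almost equal. *Igf1r* had a rho of 0.886 (exact permutation p = 0.0333, adjusted p = 0.150), and no other family gene had an unadjusted p under 0.05. Each sex held 3 iNICD libraries, too few for a value within a sex.

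After the mean of each group was subtracted from log2 CPM, the genes most like *Igfbpl1* across the 12 libraries were *Ppp6r2* (r = 0.947), *Actr8* (0.903) and *Dyrk1b* (0.900). Those most like *Igf2* were *Gm26947* (0.958), *Mknk1* (0.957) and *Ephx1* (0.931), and those most like *Igfbp3* were *Efemp1* (0.929), *Taf3* (0.918) and *Hsf4* (0.915). For *Igfbp5* they were *Slc5a3* (0.961), *Fbxo33* (0.957) and *Kif3c* (0.935). Each was picked as the highest among all tested genes over the same 12 libraries, which also share differences in depth and tissue makeup, and is given as a description. Within the family, *Igfbp3* varied with *Igfbp6* (r = 0.78) and with *Igfbp5* (r = 0.75), whereas *Igfbpl1* and *Igfbp7* varied in opposite directions (r = -0.72). *Igfbp5* and *Igf1r* had an r of -0.70 over all libraries and -0.22 without Control 5.

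Promoter sequence of 300 bases, 250 before and 50 after the start, was available in RefSeq tables for 9 of the 10 genes, all but *Igfbpl1*. The motif TGGGAA, the core of sites bound by RBPJ, the DNA-binding partner of the Notch intracellular domain, was searched on both strands. It was present in 25.6% of 32851 promoters and in 4 of the 13 promoters of these genes, which belonged to *Igf1*, *Igf2* and *Igf1r*. A match describes the letters only, and no binding was measured.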

How the data were processed

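Ribosomal RNA was removed before sequencing. The authors deposited 1 table with raw counts per gene name, not normalised, beside a gene length in bases, which served to scale levels between genes. The submitters' processing notes name cutadapt, STAR 2.4.2a, Subread, featureCounts, edgeR and the mm10 build; the table does not say which counting route made it. Titles and descriptions of the samples gave groups, sex and replicate numbers. A gene was kept if it exceeded 1 CPM in 6 or more libraries, which left 13541. After TMM normalisation the genotypes were compared by edgeR 4.0.16 (quasi-likelihood, two-sided; R 4.3.3), and p-values were adjusted over all tested genes by Benjamini-Hochberg at 0.05. Standard errors were taken from the F statistic. Normalised CPM divide each count by the effective library size after TMM, and log2 CPM used a prior count of 2. Intervals cover 95%.

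The family and the pathway list were chosen with earlier results of these data known. Genes named in the text were all 10 family genes, *Igf2r*, *Insr* and *Igfbp1*, up to 5 called pathway genes each way by adjusted p, 3 most similar genes for *Igfbpl1*, for the 2 other members with the largest difference and for the one with the highest CPM, and *Notch1*. Other genes, among them *Irs2*, *H19*, the marker genes named, the neighbours of *Igfbpl1* and the further calls of DESeq2, were named after their values were seen. Lists of markers covered fibroblasts, endothelium, smooth muscle and pericytes, epicardium and mesothelium, macrophages, cardiomyocytes, lymphocytes, adipocytes, Schwann cells and ventricular muscle. No 2 libraries of a group were copies: the lowest chi-square per gene was 16.0. The fits were also run on simulated counts, and the outcome is not given here. Alternatives were DESeq2 1.42.0, the exact test of edgeR, RLE normalisation, 2 other filters, a sex term, blocks by replicate number from titles or from descriptions, fits within 1 sex and fits without 1 library. Gene positions and coding sequences are from GENCODE M21 (GRCm38), and promoters from RefSeq (GRCm38.p6). The right atrium was not analysed here.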

Additional observations from a re-analysis of the deposited data

Results flagged for a closer look

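Each group of 6 libraries was checked for a library far from the others, for the 9 tested family genes and 7 named pathway genes, 32 groups in all. In 4 of them the gap to the nearest library, divided by the range of the 6 libraries, exceeded Dixon's 95% value, and chance flags about 1 in 20 groups. *Igf2* stood at 10.3 normalised CPM in Control 6, against 0.889 to 3.06 in the other controls. *Igf1r* stood at 164.5 CPM in Control 5, against 62.3 to 94.1, and at 84.3 in iNICD 2, against 63.5 to 71.1. *Igfbp6* stood at 123 CPM in Control 4, against 61.9 to 81.0. Control 5 was also the library apart on the first principal component. The summed endothelial markers were 1527 CPM in it, against 972 to 1212 in the other controls. It was also the highest control for smooth muscle and pericyte (856 against 452 to 702), macrophage (376 against 269 to 357) and lymphocyte markers (4.73 against 2.84 to 4.26). For adipocyte (1.78 against 2.28 to 5.83) and Schwann cell markers (17.7 against 18.1 to 30.1) it was the lowest. The part of these markers in the *Igf1r* value was not tested.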

How the results depend on the processing

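*Igfbpl1* had a log2 fold change of 2.82 to 3.18 over 23 alternatives, the highest of them in males alone, the 1 alternative in which it was not called, with 8 genes called in all; as the gene was chosen with this contrast known, the range is a description. *Igf1* stayed between 0.21 and 0.38 and *Igf2* between -1.66 and -0.32. *Igfbp3* ranged from -1.13 to 0.17, the last in males alone, and *Igf1r* from -0.84 to 0.01. Of all genes, 558 were called; leaving out 1 library gave 351 (without iNICD 1) to 796 (without Control 5), with 355 without iNICD 4. DESeq2 called 1059, females alone 362 and males alone 8. Without Controls 5 and 6, chosen after seeing the data, 707 were called. Of the other pathway genes, 6 were called, 4 to 7 with 1 library left out, 10 by DESeq2, 3 in females alone and 0 in males alone by edgeR, where 5 of 57 had an unadjusted p under 0.05. The additional DESeq2 calls were *Irs2*, *Shc1*, *Rictor* and *Tsc1*. Between sexes 39 genes were called, 21 (without Control 2) to 144 (without Control 6) with 1 library left out, and 24, 25 and 22 without iNICD 2, 3 and 6. DESeq2 called 495, no filter gave 70, and control libraries alone gave 0 by edgeR, with 633 at an unadjusted p under 0.05. The causes were not tested.

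Replicate numbers are shared by the groups, but correlations of the paired deviations ran from -0.153 to 0.372 by the titles and -0.107 to 0.372 by the descriptions, with 4 of 6 pairs above 0.1 in each, and 2 of 6 iNICD libraries correlated best with their own number. The numbers were therefore not taken as pairs. With a replicate block 468 genes and 4 pathway genes were called, and with the description numbers as the block 421 and 3. *Pik3ca* and *Akt2* lost their calls under both blocks (edgeR adjusted p of 0.116 and 0.0699 by the titles) with log2 fold changes of 0.22 and -0.34, and *Ghr* under the description numbers (adjusted p = 0.0674). For genes near the floor, such as *Igfbp2*, depth allows no comparison.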
